A study of Mus musculus with 38 samples.

Results

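The genes described here encode 10 subunits and partners of the Polycomb repressive complexes, namely Ezh2, Eed, Suz12, Jarid2, Mtf2, Cbx2, Cbx7, Rnf2, Ring1 and Bmi1. They were picked by name out of the 23481 genes listed in a bulk RNA-seq table, and all 10 were found there. The same genes were followed in single-cell RNA-seq (SCRB-seq, a 3' end method that counts unique molecular identifiers, UMIs) and in SMART-seq2, which reads whole transcripts of single cells.

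Polycomb proteins keep developmental genes silent and work in 2 kinds of complexes. Polycomb repressive complex 2 (PRC2) trimethylates lysine 27 of histone H3, and Polycomb repressive complex 1 (PRC1) ubiquitinates histone H2A, compacts chromatin and, in its canonical form, binds the PRC2 mark through a CBX protein. In embryonic stem cells the complexes cover the promoters of lineage regulators such as Hox and Gata genes, and which accessory subunits a complex carries is known to change as the cells differentiate.

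All samples came from E14, a single line of mouse embryonic stem cells (mESCs) that was kept in 2i medium with LIF (2i/L) before N2B27 medium with 0.25 µM retinoic acid (RA) was given. RA and the removal of 2i and LIF thus began together, without a time course free of RA, and their effects cannot be told apart. The 38 samples were 25 bulk libraries, 9 SCRB-seq plates and 4 SMART-seq2 time points. Whole cultures were sequenced in bulk as mESCs (2 libraries) and once each at 6, 12, 24, 36, 48, 60, 72, 84 and 96 h of RA. Cells sorted by 2 surface proteins made up most of the rest. At 96 h the PDGFRA-/CD24+ cells are called ectoderm-like and the PDGFRA+/CD24- cells XEN-like (XEN, extraembryonic endoderm), with 2 libraries of each. At 48 h the PDGFRA- cells were divided into quartiles of CD24 (Q1 to Q4), and at 72 h into terciles (T1 to T3) beside a PDGFRA+/CD24- fraction, with 1 library each. Sorted cells of both lineages were also cultured in the same medium, N2B27 with EGF and FGF2. The ectoderm-like culture, grown for 5 passages, and the XEN-like culture, kept for 3 weeks as floating aggregates, gave 1 library each. The lineages are therefore those that a surface sort, followed in the cultures by growth in this medium, selects from 1 cell line.

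Bulk libraries held between 1063809 and 2459424 UMIs over 23475 genes, and levels are given as CPM (UMI counts scaled to a library total of 1000000). The mean level of 11 XEN markers was 1095 and 606 CPM in the sorted XEN-like libraries and 44.1 and 162 CPM in the sorted ectoderm-like ones, while 11 ectoderm markers averaged 297 and 255 CPM in the ectoderm-like and 55.5 and 29.3 CPM in the XEN-like libraries. The mean of 12 pluripotency markers, 1120 and 1530 CPM in mESCs, was 522 and 377 CPM in the sorted XEN-like libraries against 65.9 and 36.0 CPM in the ectoderm-like ones. Of these lists, 0 to 3 markers were at 0 in each of these libraries. Whether carried-over cells or shared genes had a part in the values below was not tested. In a bulk library, fewer cells of a type and less RNA per cell cannot be told apart.

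The labels of 16 bulk libraries list a barcode and those of 9 do not, these 9 being mESC replicate 2 and all sorted fractions of 48 h and 72 h. Ezh2 ran from 60.7 to 447 CPM with a median of 332 in the 16 libraries and from 99.2 to 282 CPM with a median of 175 in the 9, ranges that overlap. The mESC libraries held 341 and 172 CPM of Ezh2. The 48 h culture held 353 CPM where the 4 CD24 quartiles of 48 h held 174.8 CPM together, a ratio of 0.50 (0.45 to 0.54). Labels do not say that the quartiles were sorted from this culture, and the quartiles leave out PDGFRA+ cells. Cbx2 differed likewise at 48 h, with 17.1 CPM in the culture and 5.95 CPM in the pooled quartiles (ratio 0.35, 0.21 to 0.56), whereas Rnf2 did not (0.93, 0.75 to 1.16). These intervals, and all others given for ratios of single libraries, are exact 95% intervals that cover counting error only. For the results that turn on mESC levels, values against the mESC library of the same set are therefore given as well.

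PRC2 members and their changes are described first. Mtf2, the Polycomb-like protein that brings PRC2 to unmethylated CpG-rich DNA, lies at chr5:108065660-108109219 (mouse build GRCm38.p6), Eed, the subunit that reads the PRC2 mark, at chr7:89954654-89980976, and Suz12, the structural core subunit, at chr11:79993106-80034123. Jarid2, a cofactor that helps PRC2 find its targets, lies at chr13:44730774-44921643, and Ezh2, the methyltransferase itself, at chr6:47530274-47595270. The PRC1 genes are Cbx2 at chr11:119023019-119031275, Cbx7 at chr15:79915804-79971143, Rnf2 at chr1:151469398-151500991, Ring1 at chr17:34020792-34024680 and Bmi1 at chr2:18677018-18686629.

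The promoters of 4 genes that fell together, of Bmi1, which rose, and of Ezh2, which did not follow either course, are shown. Each is the 250 bases before an annotated start in RefSeq (GRCm38.p6), 5′ to 3′ on the gene's strand. This start need not be the end of the gene span given above. Most of the Ezh2 window and the last bases of the Mtf2 window lie inside those spans. Capitals mark CCAAT or its reverse complement ATTGG. The windows are chr5:108065424-108065673 (plus strand) for Mtf2, chr7:89980977-89981226 (minus) for Eed, chr11:79992856-79993105 (plus) for Suz12, chr13:44730524-44730773 (plus) for Jarid2, chr2:18676768-18677017 (plus) for Bmi1 and chr6:47595031-47595280 (minus) for Ezh2.
Mtf2: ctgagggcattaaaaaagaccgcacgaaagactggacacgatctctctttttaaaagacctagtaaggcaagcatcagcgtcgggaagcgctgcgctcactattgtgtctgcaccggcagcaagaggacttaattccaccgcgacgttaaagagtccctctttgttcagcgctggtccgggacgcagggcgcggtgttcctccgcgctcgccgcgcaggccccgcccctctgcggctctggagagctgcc
Eed: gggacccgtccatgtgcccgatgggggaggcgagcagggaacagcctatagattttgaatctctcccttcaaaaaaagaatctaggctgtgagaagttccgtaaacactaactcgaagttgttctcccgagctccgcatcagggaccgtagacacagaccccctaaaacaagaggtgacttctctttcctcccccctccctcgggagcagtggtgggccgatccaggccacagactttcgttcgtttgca
Suz12: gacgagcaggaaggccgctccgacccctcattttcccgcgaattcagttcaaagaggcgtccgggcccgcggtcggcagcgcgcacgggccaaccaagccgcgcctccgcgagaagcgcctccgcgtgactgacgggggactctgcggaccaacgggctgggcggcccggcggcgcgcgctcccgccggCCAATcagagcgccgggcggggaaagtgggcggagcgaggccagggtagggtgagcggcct
Jarid2: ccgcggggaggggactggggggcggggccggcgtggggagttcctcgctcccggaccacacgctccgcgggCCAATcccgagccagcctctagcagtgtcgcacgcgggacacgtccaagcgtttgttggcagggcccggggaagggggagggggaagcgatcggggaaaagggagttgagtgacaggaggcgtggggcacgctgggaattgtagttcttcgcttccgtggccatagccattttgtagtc
Bmi1: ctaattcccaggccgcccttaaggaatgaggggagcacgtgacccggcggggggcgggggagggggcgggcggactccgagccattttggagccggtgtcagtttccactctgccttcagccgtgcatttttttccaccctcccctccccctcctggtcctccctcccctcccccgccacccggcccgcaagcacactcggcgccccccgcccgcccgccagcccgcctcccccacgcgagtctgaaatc
Ezh2: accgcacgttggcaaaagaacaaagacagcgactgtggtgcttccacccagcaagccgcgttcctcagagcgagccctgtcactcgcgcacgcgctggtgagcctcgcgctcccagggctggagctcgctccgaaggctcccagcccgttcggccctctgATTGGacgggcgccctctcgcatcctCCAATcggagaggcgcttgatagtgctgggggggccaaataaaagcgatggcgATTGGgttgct

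RefSeq held 11 such windows for 9 of the members (Cbx2 had no entry), and the strand was checked against the transcript for 10 of the 11. Of these, 9 had at least 20 CpG dinucleotides, against 17.9% of 32851 mouse promoter windows of the same length with a median of 6. Eed had 12, and a second Mtf2 window had 2. CCAAT, searched on both strands and known as the NF-Y motif, occurred 3 times in the Ezh2 window and once each in those of Suz12 and Jarid2 shown above, of Cbx7 and in the second one of Mtf2, which makes 5 of 11 windows where 33.8% of all held it. AGGTCA, the half-site of nuclear receptors such as the RA receptors, was not found in any of the 11 windows and stood in 14% of all. The E2F-type letters TTTGGCGC and TTTCGCGC were not found either (0.417% and 0.256% of all). A motif match or its absence describes these letters in these windows and nothing about a factor.

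Over the 96 h of RA the PRC2 members other than Ezh2 fell and 2 PRC1 members rose. A linear trend over hours of RA in the 11 whole-culture libraries (edgeR quasi-likelihood test, Benjamini-Hochberg adjustment over 9172 genes) called 6 of the 9 members that passed the filter on low counts. Of all genes tested, 39.5% were called, 19.8% upward and 19.7% downward. Mtf2, Eed, Suz12 and Jarid2 fell, Bmi1 and Cbx2 rose, and Ezh2, Cbx7 and Rnf2 were not called. Ring1 had too few counts to be tested.

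Mtf2 had the largest fitted slope of the members. It held 394 and 444 CPM in the mESC libraries, then 497, 429, 335, 219 and 168 CPM at 6, 12, 24, 36 and 48 h. Levels of 113, 110, 97.8 and 76.9 CPM followed at 60, 72, 84 and 96 h. Every library from 24 h on lay below both mESC libraries. The fitted change over 96 h was −3.14 ± 0.19 on the log2 scale (SE, adjusted p = 2.22e-07 by edgeR).

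Eed held 155 and 147 CPM in mESCs, 157 and 136 CPM at 6 and 12 h, 90.1 and 78.1 CPM at 24 and 36 h, and between 54.3 and 73 CPM in the 5 libraries from 48 h to 96 h. Its fall came between 12 and 48 h, and the later values had no order in time (−1.93 ± 0.24 over 96 h, adjusted p = 3.80e-05 by edgeR). Suz12 went from 51.2 and 56.6 CPM in mESCs to 37.9 and 22.4 CPM at 24 and 36 h, 30.5 and 28.8 CPM at 48 and 60 h and 23.6 CPM at 96 h (−1.77 ± 0.23, adjusted p = 5.03e-05 by edgeR). Each of its libraries rested on at most 130 UMIs.

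Jarid2 rose before it fell. It held 124 and 85.3 CPM in mESCs, then 314, 226, 213, 113 and 97.6 CPM at 6, 12, 24, 36 and 48 h, and 46.1 CPM after 96 h. The 6 h library held 3.00 times the pooled mESC level (2.66 to 3.38), or 2.53 times (2.19 to 2.92) mESC replicate 1, the library of its own label set, and 6.37% of 6518 genes differed at least 2-fold at this time, 2.33% being higher. Jarid2 alone did so among the 7 members with at least 50 UMIs, and with 1 library at 6 h the difference has no replicate check. A straight line describes such a course poorly, and its fitted change of −2.75 ± 0.48 (adjusted p = 5.74e-04 by edgeR) sums up the rise and the fall in 1 slope.

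Ezh2 held 341 and 172 CPM in mESCs and between 262 and 447 CPM afterwards, lowest at 96 h and highest at 72 h. The mESC libraries, which fall in different label sets, stood at a ratio of 0.50, wider than that between the 96 h and 72 h libraries, and no trend was called (−0.19 ± 0.27, adjusted p = 0.604 by edgeR). Within the barcode-listed set the 48 h and 72 h cultures stood at 1.03 (0.94 to 1.14) and 1.31 (1.19 to 1.45) times mESC replicate 1. Within the other set the pooled 48 h quartiles and the pooled 72 h fractions stood at 1.02 (0.90 to 1.15) and 1.11 (0.99 to 1.26) times mESC replicate 2. Set against its own label set, Ezh2 changed by less than 1.5-fold at these times.

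**Figure D1:**
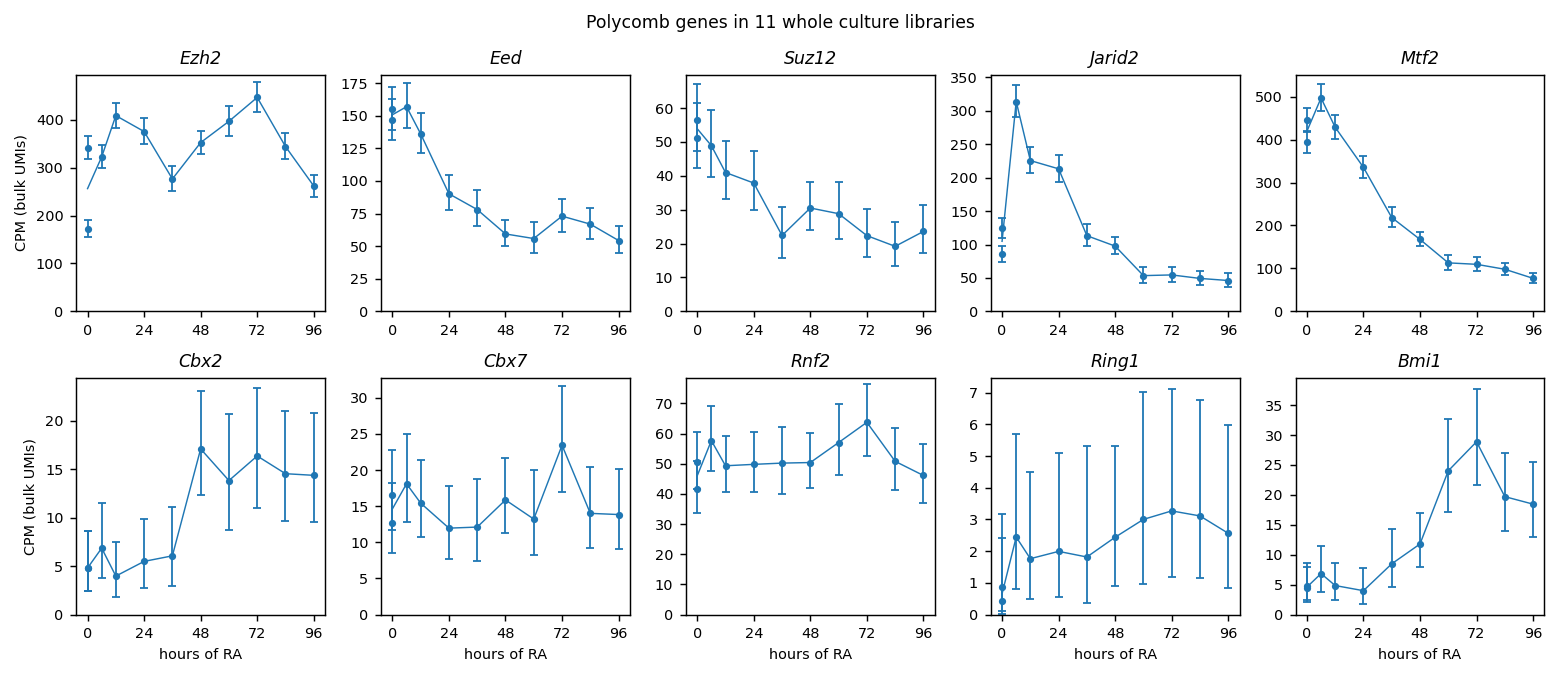
Levels of the 10 Polycomb genes in the 11 whole-culture bulk libraries, in CPM on a linear axis, against hours of RA. Each point is 1 library and bars are exact 95% Poisson intervals of its count. Mtf2 ran from 394 and 444 CPM in mESCs to 76.9 CPM at 96 h, Jarid2 peaked at 314 CPM at 6 h, and Bmi1 went from below 5 CPM to 28.9 CPM at 72 h.

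Among the PRC1 genes, Bmi1, a PCGF subunit that pairs with the RING1 ligases, held 4.81 and 4.35 CPM in mESCs and 3.99 to 6.85 CPM up to 24 h. The level then went to 8.47, 11.8, 24.0, 28.9, 19.7 and 18.5 CPM at 36, 48, 60, 72, 84 and 96 h. All libraries from 36 h on exceeded every earlier one (2.26 ± 0.43 over 96 h, adjusted p = 0.00100 by edgeR). A pseudogene, Gm5946, is 97.0% identical to Bmi1 over 2658 bases and is not in the table, so reads of both could have been counted as Bmi1.

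Cbx2, a chromodomain subunit known for compacting chromatin, stood at 4.81 and 4.79 CPM in mESCs and 3.96 to 6.85 CPM from 6 to 36 h, and at 17.1, 13.8, 16.3, 14.5 and 14.4 CPM from 48 to 96 h. These 2 ranges did not overlap, and the trend was called (1.55 ± 0.38, adjusted p = 0.00590 by edgeR). Within label sets the step at 48 h differed, since the 48 h culture held 3.55 times mESC replicate 1 (1.80 to 7.64) and the pooled quartiles 1.24 times mESC replicate 2 (0.61 to 2.73). At 72 h the ratios were 3.40 (1.65 to 7.51) and 1.68 (0.85 to 3.63). Counts of Cbx2 were low, at most 42 UMIs in a library.

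Cbx7, the main chromodomain subunit of stem cell PRC1, held 12.7 and 16.5 CPM in mESCs and 12.0 to 23.4 CPM later, with the highest value at 72 h (−0.33 ± 0.28, adjusted p = 0.375 by edgeR). The 3' end of Cbx7 overlaps that of Apobec3, which had 904 UMIs over all libraries, and reads from the overlap could belong to either gene. Rnf2, the principal H2A ubiquitin ligase, had the narrowest range of the 10 members, between 41.6 and 63.8 CPM in the 11 libraries (−0.29 ± 0.18, adjusted p = 0.210 by edgeR). Its level at 96 h (46.1 CPM) lay between those of the mESC libraries (41.6 and 50.5 CPM), and the small negative fit follows a composition scaling (TMM) that lowers log2 ratios of 96 h to mESC by 0.42. Ring1, the paralogue of Rnf2, was barely detected, with 95 UMIs in all 25 libraries, 1 and 2 UMIs in mESCs and 3 to 6 UMIs in each later time point.

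As single libraries, without a test, the 96 h culture and the pooled mESCs differed at least 2-fold for 6 of the 9 members with 50 UMIs, Bmi1 and Cbx2 being higher and Mtf2, Eed, Suz12 and Jarid2 lower. Of 6969 genes 29.6% did so, 20.9% higher and 8.75% lower. Against mESC replicate 1, of the same label set, the ratios were 0.20 for Mtf2, 0.35 for Eed, 0.46 for Suz12, 0.37 for Jarid2, 3.83 for Bmi1 and 2.98 for Cbx2, the last 2 on under 50 UMIs. Against mESC replicate 2 Jarid2 was inside 2-fold (0.54, 0.42 to 0.70), and 3 members were past it. The decline of Mtf2, Eed and Jarid2 was also present within each label set. Mtf2 in the 48 h culture stood at 0.43 (0.38 to 0.48) of mESC replicate 1 and in the pooled quartiles at 0.49 (0.45 to 0.53) of mESC replicate 2. The ratios for Eed were 0.38 (0.31 to 0.47) and 0.45 (0.39 to 0.53). Jarid2 at 72 h stood at 0.44 (0.35 to 0.55) and 0.39 (0.32 to 0.49) of the mESC library of its set. Bmi1 rose within both, to 2.45 (1.19 to 5.44) and 2.49 (1.26 to 5.45) times at 48 h.

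The sorted lineages at 96 h were compared with mESCs in 1 edgeR fit over the 6 replicated libraries and 8945 genes. Labels call the sorted libraries biological replicates, and p-values measure the spread between 2 libraries of each kind. The ectoderm-like and XEN-like comparisons share the mESC libraries and are therefore not independent. TMM scaling lowers the log2 ratio of ectoderm-like to mESC by 0.32 and of XEN-like to mESC by 0.20, and raises that of XEN-like to ectoderm-like by 0.11. Fold changes below include it, and CPM do not.

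In sorted ectoderm-like cells 5 of the 9 members tested differed from mESCs, 4 lower and 1 higher, where 19.1% of all genes were called, 9.82% higher and 9.27% lower. Mtf2 held 97.8 and 86.6 CPM against 394 and 444 CPM in mESCs (−2.50 ± 0.28 log2, SE, n = 2 and 2, adjusted p = 1.54e-04 by edgeR). Eed held 70.6 and 65.3 CPM against 155 and 147 CPM (−1.46 ± 0.26, adjusted p = 0.00275 by edgeR). Both pairs were far apart, with replicates close together.

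Jarid2 held 62.2 and 37.5 CPM against 124 and 85.3 CPM (−1.38 ± 0.39, adjusted p = 0.0299 by edgeR), and Suz12 held 35.6 and 21.3 CPM against 51.2 and 56.6 CPM (−1.24 ± 0.39, adjusted p = 0.0446 by edgeR). Groups did not overlap for either gene, although both calls were lost when ectoderm-like replicate 1 or 2 or mESC replicate 1 was left out (largest adjusted p 0.215 for Jarid2 and 0.257 for Suz12). Without mESC replicate 2, the library with no listed barcode, Jarid2 was still called and Suz12 was not (−1.14, adjusted p = 0.102 by edgeR). DESeq2 also left Suz12 uncalled (adjusted p = 0.0931). All 4 PRC2 members called were lower.

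Bmi1 was the 1 member called higher, with 27.8 and 19.4 CPM against 4.81 and 4.35 CPM (2.04 ± 0.40, adjusted p = 0.00444 by edgeR). Cbx2 held 21.1 and 10.3 CPM against 4.81 and 4.79 CPM, without overlap but also without a call (1.39 ± 0.52, adjusted p = 0.0846 by edgeR). Rnf2 (0.33 ± 0.29), Ezh2 (0.07 ± 0.30) and Cbx7 (−0.18 ± 0.42) were not called. Ezh2 held 352 and 311 CPM, near the 341 CPM of mESC replicate 1 and above the 172 CPM of replicate 2, and its fitted change turned to −0.34 without the latter. Over the 9 members the median change was −0.18, and over all genes 0.05.

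Sorted XEN-like cells had 6 of 9 members called against mESCs, 5 lower and 1 higher, where 22.8% of all genes were called, 12.3% higher and 10.5% lower. Mtf2 held 82.8 and 48.3 CPM (−2.89 ± 0.29 against mESC, adjusted p = 8.64e-05 by edgeR), Jarid2 41.1 and 14.6 CPM (−2.09 ± 0.41, adjusted p = 0.00372) and Suz12 26.4 and 10.0 CPM (−1.74 ± 0.40, adjusted p = 0.00926). Eed held 54.3 and 56.5 CPM (−1.65 ± 0.27, adjusted p = 0.00125 by edgeR). For Mtf2, Jarid2 and Suz12, replicate 2 held 0.58, 0.35 and 0.38 of the level in replicate 1, while the Eed replicates were alike, and Suz12 was not called without XEN-like replicate 2 (adjusted p = 0.0676 by edgeR).

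Ezh2 fell in XEN-like cells, at 137 and 103 CPM against 341 and 172 CPM in mESCs (−1.30 ± 0.31, adjusted p = 0.0112 by edgeR). The size of this change depended on the mESC library, −1.70 without replicate 2 and −0.78 without replicate 1, the latter not called (adjusted p = 0.125). It was also not called without either XEN-like library (adjusted p = 0.0626 and 0.0753 by edgeR). Bmi1 rose to 16.3 and 14.6 CPM (1.53 ± 0.42, adjusted p = 0.0217 by edgeR), a call that was lost without any 1 of the 4 libraries compared and under DESeq2, with adjusted p between 0.0661 and 0.125. Cbx7 (−0.78 ± 0.44), Rnf2 (−0.46 ± 0.30) and Cbx2 (−0.02 ± 0.61) were not called. The median over the 9 members was −1.30, beside −0.06 over all genes.

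Between the lineages, Ezh2 was the single member called of 9, with 137 and 103 CPM in the XEN-like libraries and 352 and 311 CPM in the ectoderm-like ones (−1.36 ± 0.31, adjusted p = 0.0154 by edgeR), where 12.7% of all genes were called, 5.71% lower and 6.98% higher in XEN-like cells. All 4 libraries list a barcode. Leaving out any 1 of the 4 kept the change between −1.44 and −1.27 and raised the adjusted p to between 0.0767 and 0.124, so the call needed both pairs. Rnf2, at 39.1 and 38.3 CPM against 71.7 and 72.4 CPM, did not overlap between lineages and was not called (−0.79 ± 0.30, adjusted p = 0.115 by edgeR). Neither was Cbx2, at 7.62 and 2.73 CPM against 21.1 and 10.3 CPM (−1.40 ± 0.54, adjusted p = 0.117). The other 6 members lay between −0.71 and −0.19, with adjusted p of at least 0.306 by edgeR. The median of the members was −0.61.

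Sorted fractions before 96 h gave a look at earlier stages, with 1 library each and no test. At 72 h the PDGFRA+/CD24- fraction held 99.2 CPM of Ezh2 and the 3 PDGFRA- terciles together 225 CPM, a ratio of 0.44 (0.36 to 0.53). Rnf2 stood at 36.0 against 73.3 CPM, a ratio of 0.49 (0.35 to 0.67). These were the 2 members past 2-fold among the 8 with at least 50 UMIs, where 23.2% of 6100 genes were and 14.9% were lower. Under TMM scaling, an alternative chosen after seeing the data that adds 0.16 to log2 ratios, Ezh2 alone was past 2-fold.

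Jarid2 had a ratio of 0.54 (0.34 to 0.81), Bmi1 0.59 (0.32 to 1.05), Mtf2 0.71 (0.57 to 0.87), Suz12 0.74 (0.43 to 1.21), Eed 0.79 (0.60 to 1.03) and Cbx7 1.21 (0.67 to 2.12). The 4 fractions carry no barcode in their labels and form a set of their own with the 48 h quartiles and mESC replicate 2. Ezh2 and Rnf2 were thus also lower in the PDGFRA+ cells within that set. The S phase genes moved with them, 11 of 14 being lower in the PDGFRA+ fraction with a median ratio of 0.71, and their part in the difference was not tested.

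At 48 h, within PDGFRA- cells, the highest CD24 quartile (Q4) was set against the lowest (Q1). Of the 6 members with at least 50 UMIs none was past 2-fold (5.58% of 4352 genes were). Eed held 48.0 CPM in Q4 and 85.6 CPM in Q1 (ratio 0.56, 0.42 to 0.75), and Mtf2 175 and 251 CPM (0.70, 0.59 to 0.82). Ezh2 was alike in both, at 174.9 and 173 CPM (1.01, 0.85 to 1.20), as was Jarid2 at 77.7 and 64.9 CPM (1.20, 0.91 to 1.58). Rnf2 held 36.6 CPM in Q4 and 52.2 CPM in Q1, and Suz12 held 22.7 and 26.1 CPM. Eed and Mtf2 were lower in the high-CD24 quartile, the direction that both genes took over time. The match did not hold for all members, since Rnf2 had no called trend and Jarid2, which fell over time, was not lower in Q4. There was no replicate check.

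The cultured lineages were compared with the freshly sorted cells, with 1 library of each culture and no test. Against the pooled sorted ectoderm-like cells, the ectoderm-like culture had 4 of 9 members at least 2-fold lower, where 27.7% of 6886 genes passed in either direction and 12.9% were lower. Mtf2 stood at 33.2 CPM (ratio 0.36, 0.27 to 0.47), Ezh2 at 139 CPM (0.42, 0.36 to 0.48), Cbx2 at 6.96 CPM (0.43, 0.22 to 0.80) and Cbx7 at 7.49 CPM (0.46, 0.23 to 0.83). The count rested on sorted replicate 1, being 5 against that library alone and 2, Ezh2 and Mtf2, against replicate 2, where Cbx2 stood at 0.67 (0.30 to 1.49) and Cbx7 at 0.64 (0.30 to 1.37). Rnf2 was just inside the threshold at 36.9 CPM (0.51, 0.39 to 0.67), and Bmi1 was the member nearest to 1 (24.1 CPM, 1.01, 0.68 to 1.47).

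Eed (0.63, 0.48 to 0.81) and Jarid2 (0.59, 0.43 to 0.80) were lower by less than 2-fold, and relative to Gapdh, which held 1494 CPM in the culture and 2726 CPM in sorted cells, their ratios turned to 1.15 and 1.08. Relative to Gapdh the ratios of Ezh2 and Mtf2 became 0.76 and 0.65, so that the size of every change in this culture depended on the scale. The S phase genes were lower too, 13 of 14 with a median ratio of 0.62.

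In the XEN-like culture Ezh2 reached its lowest level of all 25 libraries, 60.7 CPM, or 0.49 (0.38 to 0.62) of the sorted XEN-like cells. Mtf2 was at 30.4 CPM (0.43, 0.30 to 0.60), also its lowest. These were the 2 of 8 members past 2-fold, where 38.6% of 6432 genes were and 19% were lower. Higher levels were seen for Cbx7 at 20.7 CPM (1.98, 1.16 to 3.37), Suz12 at 38.6 CPM (1.88, 1.29 to 2.74) and Bmi1 at 26.9 CPM (1.72, 1.1 to 2.68). The size of these ratios depended on the sorted library. Suz12 stood at 1.46 (0.98 to 2.18) against replicate 1 and 3.85 (2.00 to 8.16) against replicate 2, and Cbx7 at 1.63 (0.93 to 2.89) and 3.24 (1.40 to 8.75). Ezh2 stood at 0.44 and 0.59 and Mtf2 at 0.37 and 0.63, so that against replicate 2 neither was past 2-fold and Suz12 was. Eed, a core partner of both Ezh2 and Suz12, held 33.8 CPM (0.61, 0.44 to 0.85). Eed too was lowest in this culture, as were Rnf2 at 26.2 CPM and Cbx2 at 2.07 CPM, the latter on 3 UMIs. All 14 S phase genes were lower, with a median ratio of 0.34, and their mean level of 48.0 CPM was the lowest of the 25 libraries.

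XEN-like against ectoderm-like culture gave the same direction for Ezh2 as the sorted cells did, 60.7 against 139 CPM (0.44, 0.34 to 0.56), the 1 member past 2-fold of 7 with 50 UMIs, where 40.7% of 5965 genes were and 22% were lower. Cbx7 was the reverse, at 20.7 against 7.49 CPM (2.76, 1.42 to 5.64), on 44 UMIs in all and so below the count minimum. Suz12 stood at 1.85 (1.21 to 2.86), and Eed (0.79, 0.54 to 1.14), Mtf2 (0.91, 0.61 to 1.37) and Bmi1 (1.12, 0.71 to 1.75) had intervals that included 1. All 14 S phase genes were lower in the XEN-like culture as well, and their part in the Ezh2 difference was not tested. The mean of the 11 ectoderm markers hardly separated the cultures, at 141 CPM (XEN-like) and 150 CPM (ectoderm-like). Sorted XEN-like replicates 1 and 2 had means of 55.5 and 29.3 CPM for these markers. The 11 XEN markers did separate the cultures, with means of 918 CPM (XEN-like) and 203 CPM (ectoderm-like). How closely this contrast matches that of the sorted cells was not tested. Each culture is 1 library of 1 derivation.

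**Figure D2:**
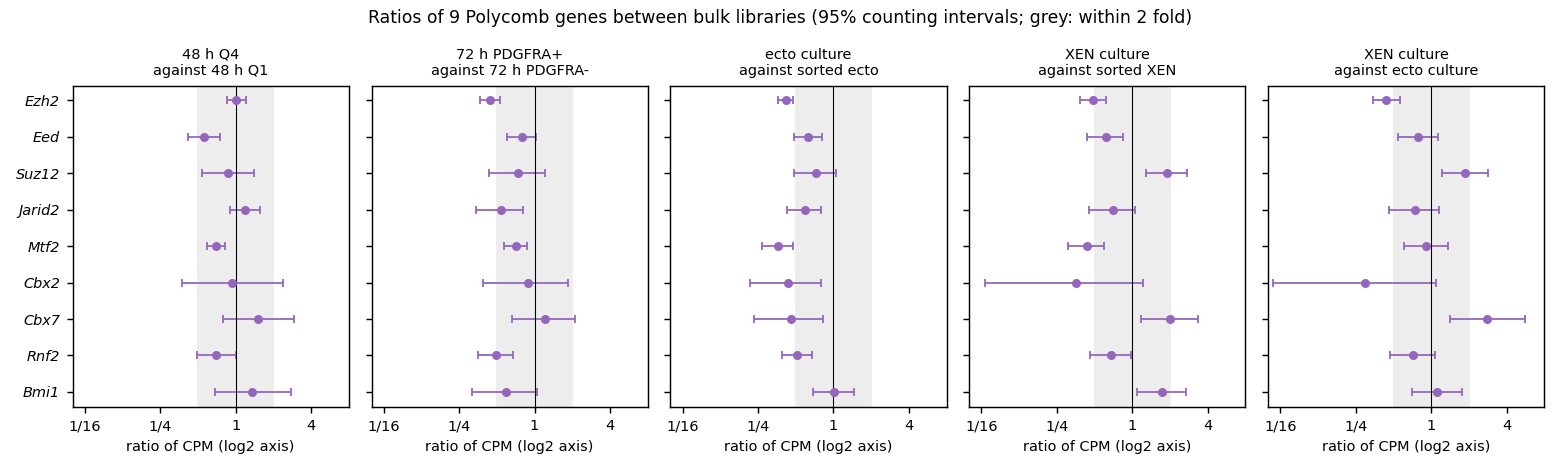
Ratios of CPM for the Polycomb genes in comparisons with 1 library in at least 1 arm, on a log axis, with exact 95% intervals of counting error. Ezh2 lies at 0.44 in PDGFRA+ cells at 72 h, at 0.42 and 0.49 in the ectoderm-like and XEN-like cultures against sorted cells, and at 0.44 between the cultures.

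Paralogues and alternative subunits were compared as shares of their summed UMIs, which do not depend on library scaling. Cbx7 made up 72.5% and 77.6% of Cbx7 and Cbx2 UMIs in mESCs, 66.7% to 79.5% from 6 to 36 h and 48.1% to 58.9% from 48 to 96 h. It was 49.3% and 52.9% in sorted ectoderm-like cells, 62.5% and 70% in XEN-like cells, 51.9% (32% to 71.3%) in the ectoderm-like culture and 90.9% (75.7% to 98.1%) in the XEN-like culture. Intervals are exact binomial (Clopper-Pearson, 95%). The 48 h quartiles, at 60.7% to 80%, stood above the 48.1% of the 48 h culture, which falls in the other label set.

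Jarid2, a subunit of the PRC2.2 form, made up 24.0% and 16.1% of the UMIs of Jarid2 and Mtf2, the latter belonging to PRC2.1, in mESCs. Its share was 32.1% to 38.9% in all time points from 6 to 96 h, above both mESC libraries at each of these times. The sorted fractions of 48 and 72 h, from the other label set, lay between 19.2% and 30.8%, beside the 16.1% of their mESC library. In sorted cells at 96 h the share was 38.9% and 30.2% (ectoderm-like) and 33.2% and 23.2% (XEN-like), and in the cultures 47.5% (38.2% to 56.9%) and 42.1% (30.9% to 54%).

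Bmi1 was set against Pcgf2, the PCGF subunit related most closely to it. Its share went from 18.6% and 18.2% in mESCs to 44.4% to 58.8% from 60 to 96 h, 64.1% and 50.8% in sorted ectoderm-like and 49.2% and 57.1% in sorted XEN-like cells. Phc2 among Phc1 and Phc2, the Polyhomeotic proteins that polymerize canonical PRC1, went from 18.4% and 16% in mESCs, through 5.49% at 12 h, to 46.2% to 64.4% from 60 to 96 h. Ring1 was 0% to 19.1% of Ring1 and Rnf2, highest in the XEN-like culture on 9 UMIs of Ring1. PRC1 partner shares thus shifted toward Cbx2, Bmi1 and Phc2 in the whole cultures, in libraries without replicates at each time.

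**Figure D3:**
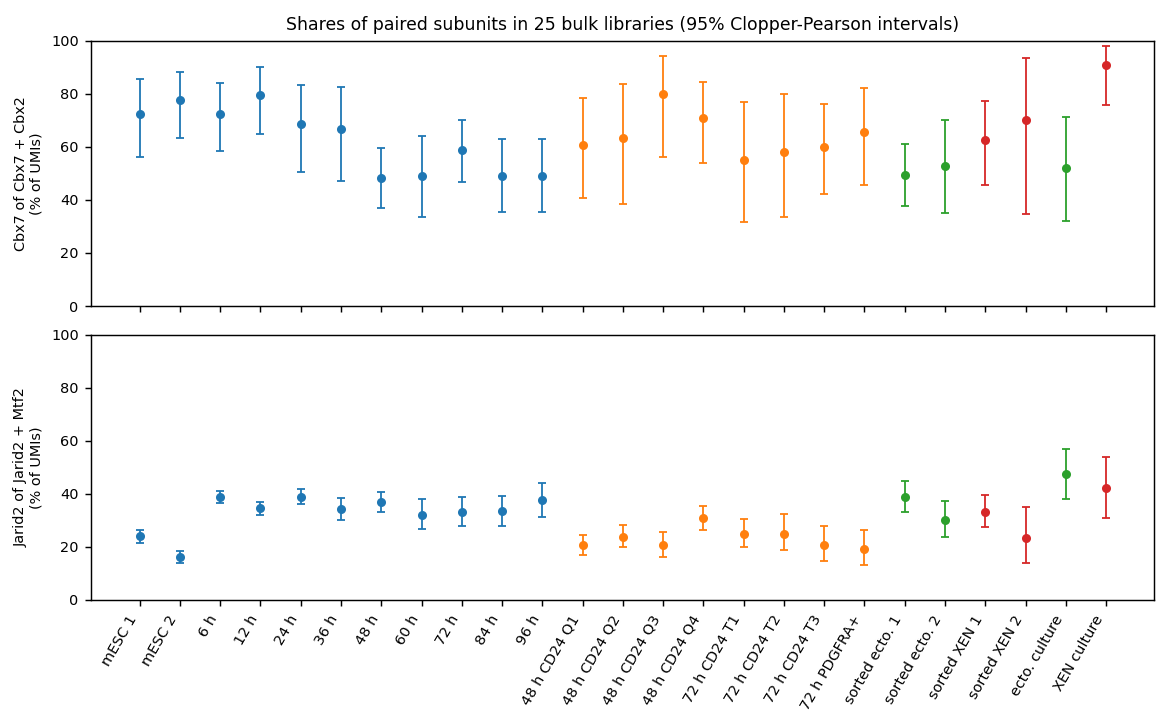
Shares of UMIs between alternative subunits in the bulk libraries, in percent, with exact 95% binomial intervals of counting error. Cbx7 among Cbx7 and Cbx2 drops from 72.5% and 77.6% in mESCs to below 60% from 48 h in the whole cultures, but not in the 48 h quartiles or XEN-like cells, and Jarid2 among Jarid2 and Mtf2 lies above 30% in every whole culture given RA.

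SCRB-seq gave a separate series of cultures, 1 plate of 384 wells at each of 9 times, and 2448 cells with more than 2000 UMIs were used (137 to 335 per time, medians of 3560 to 5069 UMIs). Well names were shared by all plates, and 0 cells had identical counts. Summed over cells, Mtf2 fell from 6.74 to 1.98 UMIs per 10000 between 0 and 96 h (ratio 0.29, 0.25 to 0.35). Eed went from 1.37 to 0.427 (0.31, 0.21 to 0.45), Suz12 from 4.00 to 1.33 (0.33, 0.27 to 0.41) and Jarid2 from 1.96 to 0.523 (0.27, 0.19 to 0.37). All ratios were below 0.5, where 35.9% of 6462 genes differed at least 2-fold, 17.3% lower and 18.6% higher.

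Jarid2 again peaked early, at 4.30 and 4.60 UMIs per 10000 at 6 and 12 h, and its share among Jarid2 and Mtf2 went from 22.5% (20.5% to 24.6%) at 0 h to 47.2% and 49.7% at 6 and 12 h and was 20.9% (15.2% to 27.5%) at 96 h, back near its start, unlike in the bulk cultures. Ezh2 was higher throughout RA, from 0.632 at 0 h to 2.52 at 72 h and 1.02 at 96 h (96 h against 0 h 1.61, 1.19 to 2.17). Bmi1 went from 0.0531 to 0.468 (8.81, 4.26 to 20.0) on 10 and 34 UMIs, and Cbx2 from 0.0743 to 0.316 (4.26, 2.10 to 8.95) on 14 and 23 UMIs. In wells with more than 4000 UMIs the Cbx2 ratio was 1.69. Rnf2 had a ratio of 1.02 (0.73 to 1.42).

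Cbx7 fell in SCRB-seq, from 1.15 to 0.674 UMIs per 10000 (0.59, 0.42 to 0.81), where the bulk ratio of 96 h to pooled mESCs was 0.95 (0.58 to 1.5). Its share among Cbx7 and Cbx2 went from 93.9% (90% to 96.6%) at 0 h to 62.1% (54.4% to 69.3%) at 48 h. It was 77.9% (70% to 84.6%) at 60 h, 55.2% at 72 h and 68.1% (56% to 78.6%) at 96 h. The drop at 48 h was thus present in bulk cultures and in single cells, while the starting share was higher in the latter. After 48 h the single-cell share went up and down without a steady course. These plates have no replicates.

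In single cells thinned to 2000 UMIs, at least 1 UMI of Mtf2 was found in 66% of cells at 0 h and in 21.9% at 96 h (81.9% and 36.5% before thinning). For Jarid2 the share was 27.7% at 0 h, 50.1% at 6 h, 52.6% at 12 h and 6.57% at 96 h (47.5%, 74.6%, 75.8% and 16.1% before thinning). Eed was found in 22.3% and 8.03% and Bmi1 in 2.48% and 5.84% of cells at 0 and 96 h. Gata4, a XEN gene that mESCs should lack, was found in 0 of 282 cells at 0 h, with an upper 95% limit of 1.30%. Fewer cells with a detected transcript and fewer transcripts per cell cannot be told apart at this depth.

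At 96 h k-means clustering of 829 variable genes divided the 137 cells into 66 XEN-like cells, in which 11 of 11 XEN markers were higher, and 71 ectoderm-like cells, in which 10 of 11 ectoderm markers were higher. No member was among the variable genes. Clustering of log2 values gave 84 and 53 cells and placed 107 of the 137 alike, so the division is uncertain for the others. Ezh2 stood at 0.841 UMIs per 10000 in the XEN-like cells and 1.18 in the others (0.71, 0.43 to 1.16), on 29 and 45 UMIs. Cbx2 had 3 and 20 UMIs (0.17, 0.03 to 0.56), and the remaining 8 members had intervals that included 1. The direction of Ezh2 and Cbx2 was that of the sorted bulk cells, and for Ezh2 the interval also allows no difference.

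SMART-seq2 reads whole transcripts, and its RPKM (reads scaled by exon model length and by depth) allow levels to be compared between genes. In 82 cells at 0 h the mean normalized RPKM was highest for Mtf2 (227 ± 113, SD over cells), followed by Eed (187 ± 77), Rnf2 (87.5 ± 55.5), Ezh2 (53 ± 36.4), Jarid2 (44.1 ± 26.8), Suz12 (38.8 ± 22.2) and Cbx7 (31.1 ± 25.4). Cbx2 (16 ± 23.2), Bmi1 (13.2 ± 22.2) and Ring1 (6.64 ± 17.2) were lowest. Neighbours in this order overlapped widely between cells. Mtf2, Eed, Jarid2 and Rnf2 were above 1 normalized RPKM in all 82 cells, and Ring1 in 20.7% of them.

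Jarid2 rose from 44.1 to 133 at 12 h (86 cells), held 123 at 24 h (89 cells) and was back at 42.8 at 48 h (82 cells). Mtf2 held 278 and 310 at 12 and 24 h and 125 at 48 h, a ratio of 0.55 to 0 h, and Eed went from 187 to 115 (0.61). Suz12 went from 38.8 to 25.3 (0.65) and was above 1 normalized RPKM in 97.6% of cells at 0 h and 63.4% at 48 h. No member was past 2-fold at 48 h, where the means of 31.5% of 15009 genes were.

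Ezh2 had a mean of 68.7 at 12 h, 93.3 at 24 h and 79.3 at 48 h (1.5 times 0 h), Bmi1 of 11.9, 20.1 and 22.4 (1.69 times) and Ring1 of 6.54, 7.50 and 10.6 (1.60 times). Cbx2 went to 21.4 (1.34 times), Rnf2 to 99.1 (1.13 times) and Cbx7 to 23.9 (0.77 times). With 1 culture at each time there is no replicate check of these means. Mtf2, Eed, Suz12 and Cbx7 were lower and Ezh2, Bmi1, Cbx2 and Ring1 higher at 48 h than at 0 h in both single-cell methods.

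At 48 h the cells with the highest Pdgfra (7 cells) and the highest Cd24a (26 cells) were set beside the other 46, after 3 cells high in both were left out. Mtf2 had a median of 149 normalized RPKM in the Pdgfra-high cells (60.5 to 471), 54.9 in the Cd24a-high cells (16.3 to 136) and 87.7 in the rest (0 to 896). Ezh2 medians were 53.9, 72.1 and 71.1 and Rnf2 medians 134, 72.0 and 94.6, with overlapping ranges throughout. For Mtf2 and Rnf2 the order was the reverse of that in bulk at 72 h, where both were lower in the PDGFRA+ fraction than in the PDGFRA- terciles. Cells of 1 culture are not replicates, and no test was made.

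**Figure D4:**
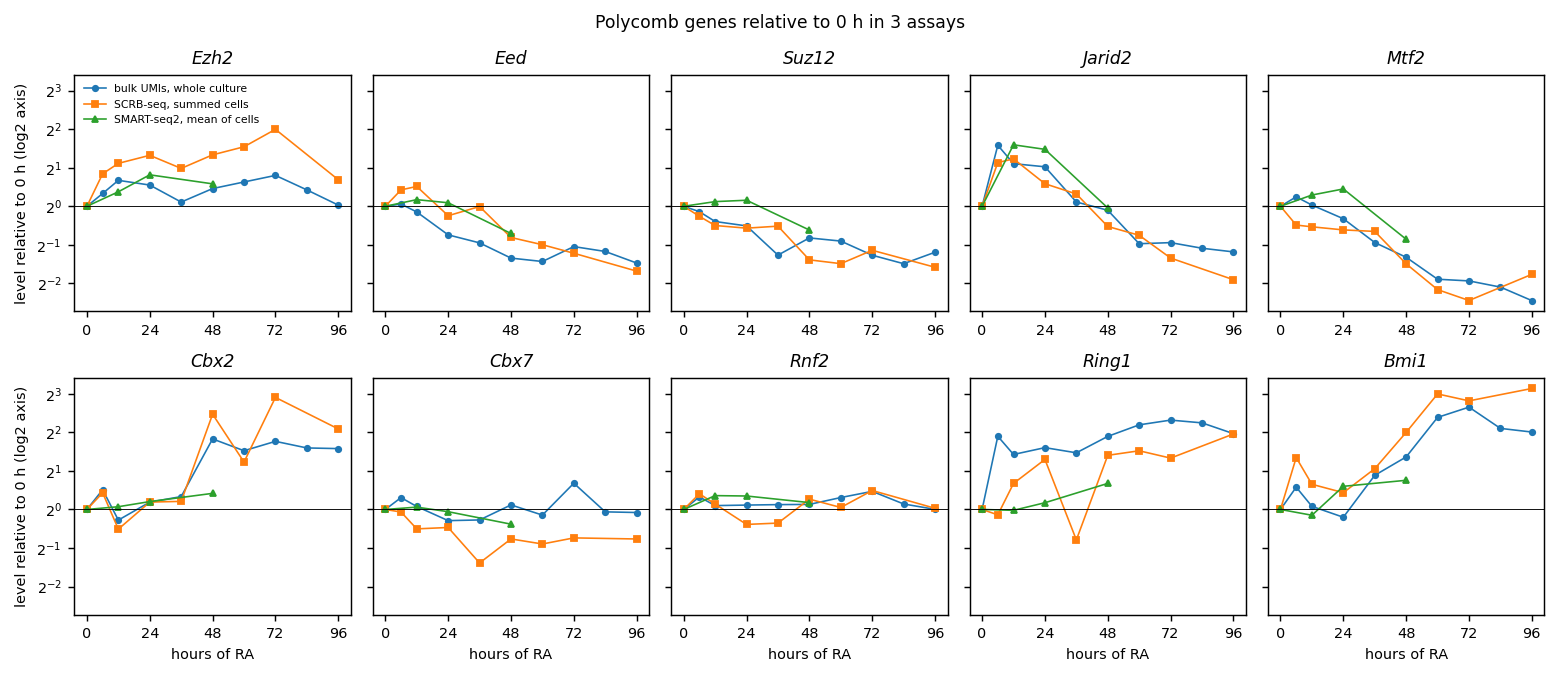
Levels of the Polycomb genes relative to 0 h in the bulk time course, SCRB-seq and SMART-seq2, on a log axis against hours of RA. Jarid2 peaks at 6 h in bulk and at 12 h in SCRB-seq and SMART-seq2, the latter without a 6 h sample, and Mtf2 and Eed lie below their 0 h level at 48 h in all of them.

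Levels and courses both differed between methods for some members. Suz12 had 4.00 UMIs per 10000 in SCRB-seq at 0 h and a mean of 53.9 CPM in bulk mESCs, and Ezh2 had 0.632 per 10000 and 256 CPM. The ratio between the methods was thus not the same for these genes, and no ranking of genes by UMIs was made. At 72 h Ezh2 was higher than at 0 h in SCRB-seq (2.52 against 0.632 per 10000) by more than in the bulk culture (1.31 times mESC replicate 1).

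The Polycomb genes outside the 10 members were counted from a list of 38, of which 37 were in the table. Of these, 27 were tested in the sorted lineages and 26 over time. The list includes 6 antagonists of the complexes (5 tested), such as Asxl1, so its counts and medians mix subunits with antagonists. Over the time course 4 of 26 rose and 4 fell, a share below the 19.8% and 19.7% of all genes. The 6 with the smallest adjusted p were Rbbp7, a histone-binding PRC2 subunit (2.13, adjusted p = 4.19e-06 by edgeR), Pcgf5 (3.35), Yaf2 (3.40), Usp7 (−1.27), L3mbtl2 (−1.45) and Phc2 (2.43). Of these, Pcgf5, Yaf2, Usp7 and L3mbtl2 belong to variant PRC1 complexes, which lack a CBX protein. The median was −0.07.

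In sorted ectoderm-like cells 6 of 27 were called (19.1% of all genes), 3 higher and 3 lower than in mESCs, namely Yaf2 (2.61 ± 0.31, 119 against 15.7 CPM), Phc2 (1.93 ± 0.43) and Rbbp7 (1.20 ± 0.33), and Phc1 (−1.76 ± 0.38), L3mbtl2 (−1.39 ± 0.30) and Usp7 (−1.20 ± 0.35), with adjusted p from 2.36e-04 to 0.0326 by edgeR. XEN-like cells had 7 of 27 called (22.8% of all genes), 3 higher and 4 lower, led by Yaf2 (2.73 ± 0.32), Pcgf5 (4.36 ± 0.56, 32.4 against 1.31 CPM), Phc1 (−2.84 ± 0.43), Rbbp7 (2.24 ± 0.34), L3mbtl2 (−1.45 ± 0.31) and Asxl1 (−1.5 ± 0.43), a subunit of the H2A deubiquitinase complex. These shares were near those of all genes. DESeq2 left Phc2 uncalled in ectoderm-like cells (adjusted p = 0.0553) and Usp7 and Asxl1 in XEN-like cells (0.0631 and 0.197). Between lineages 3 of 27 were called (12.7% of all genes), with Pcgf5 higher in XEN-like cells (2.92 ± 0.49, 32.4 against 4.62 CPM) and Phc2 (−1.64 ± 0.43, 8.32 against 29 CPM) and Auts2 (−2.55 ± 0.63, 1.98 against 14.1 CPM) higher in ectoderm-like cells. DESeq2 called Pcgf5 but not Phc2 (adjusted p = 0.163) or Auts2 (0.111). The medians were 0.12, −0.16 and −0.29. Auts2 and Pcgf5 are known as partners in a variant PRC1.

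S phase genes were followed because Ezh2 is known as an E2F target that is higher in dividing cells. Their mean level was 189 and 161 CPM in mESCs, 209 and 184 CPM in sorted ectoderm-like and 142 and 141 CPM in sorted XEN-like cells. Of 14, 5 fell in XEN-like cells against mESCs, where 10.5% of all genes did. The lowest adjusted p were those of Mcm6 (−1.44), Mcm3 (−1.44), Mcm5 (−1.23) and Mcm2 (−1.55), subunits of the replicative helicase. Mcm7 was lower in XEN-like than ectoderm-like cells (−0.89 ± 0.26, adjusted p = 0.0436 by edgeR), the 1 called of 14. Of all genes 5.71% were called lower by edgeR, and DESeq2 called 0 of the 14. Against mESCs, ectoderm-like cells had 0 of 14 called by edgeR or DESeq2, with 3 at an unadjusted p under 0.05, where edgeR called 19.1% of all genes. Over time 2 rose and 6 fell. The median S phase gene was lower wherever Ezh2 was lower by lineage or culture, and their part in it was not tested.

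Of 28 listed genes that are known as Polycomb targets in mESCs, 11 were tested in the sorted cells. A gene near 0 in mESCs could pass the filter on low counts only through libraries where it was higher. The counts of targets higher than in mESCs, over time as well, were therefore partly fixed in advance. In ectoderm-like cells 10 of 11 were higher, among them Hoxb2 (6.63 ± 0.64, 253 against 1.96 CPM), Pax6 (5.78 ± 0.78), Sox17 (4.49 ± 0.75) and Foxa2, which had no UMI in mESCs and was at least 30.6-fold higher (against a floor of 3 UMIs over both mESC libraries). XEN-like cells had 4 higher, the endoderm regulators Gata6 (7.69 ± 0.57, 119 against 0.436 CPM), Sox17 (6.96 ± 0.70), Gata4 (8.13 ± 0.99) and Foxa2 (at least 43.8-fold). Between lineages 3 were higher and 4 lower in XEN-like cells. Gata6 was higher (3.90 ± 0.40), as were Sox17 (2.47 ± 0.49) and Gata4 (2.91 ± 0.61), while Hoxb2 was lower (−5.49 ± 0.59) and Pax6 at least 35.7-fold lower, with no UMI in either XEN-like library. The medians, with genes at 0 set to their bounds, were 4.49, 2.08 and −1.30. Over time 8 of 16 rose and 0 fell by edgeR (19.8% and 19.7% of all genes), while DESeq2 called 12. These lists hold markers of the sorted lineages, so their direction is no independent evidence.

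For each member, the 3 genes with the most similar log2(CPM + 1) over the 25 bulk libraries were sought among 6405 genes with a mean of at least 10 CPM. The libraries share cultures and sorts, and the correlations are given as a description. Ezh2 was most like Nasp (Pearson's r = 0.92), a histone chaperone, followed by Cand2 and Knop1, and Mtf2 was most like Stmn2 (0.96), Gm13051 and Hsf2bp. Eed was closest to Set (0.92), Terf1 and Cth, Suz12 to Baz2a (0.87), Kat6b and Eif2b5, and Jarid2 to Gm7325 (0.92), Morc3 and Rasgrp2. Bmi1 was most like Nr2f2 (0.92), an RA-responsive nuclear receptor, Ccdc50 and Serf1.

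Of the other PRC1 members, Cbx7 was closest to Sall1 (0.76), Uri1 and Shroom3, Ring1 to Hddc3 (0.77), Zfp68 and Ing4, Rnf2 to Dhx30 (0.87), Iqcb1 and Hnrnpa1, and Cbx2 to Pcbp4 (0.89), Rdx and Marcksl1. None of the 10 members was among the 3 closest genes of another member. Cbx2 and Ring1 could not have been, since their means lay below the minimum of 10 CPM. Mtf2 overlaps Tmed5 (1385 UMIs over all libraries) by 396 antisense bases, and reads from that stretch cannot be told apart if strand was not used in counting.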

How the data were processed

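All samples were E14 mouse cells. The deposited bulk and SCRB-seq tables hold counts of UMIs per gene, which the authors made with BWA 0.7.4, mouse RefSeq mRNAs being the reference; whether strand was used is not given in the sources used here. The deposited SMART-seq2 tables hold RPKM, which the authors made with TopHat and Cuffnorm. Each cell's RPKM were brought to a common total, the median over cells at 0 h, and entries stored as text (at most 0.14% of values, all below 1 and none in a member) were set to 0.

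Groups came from the labels. The 10 members, and the lists of other Polycomb genes, S phase genes, targets and markers, were chosen with earlier results of these data known. All 10 members are named. Among other Polycomb genes at most 6 per comparison, and among targets and S phase genes at most 4, are named by adjusted p. From the bulk table, 2 genes with text values and 4 entries with repeated names were left out. Bulk totals run from 1063809 to 2459424 UMIs. Replicated libraries (6) and the time course (11) entered edgeR 4.0.16 under R 4.3.3 (quasi-likelihood, TMM, filterByExpr, Benjamini-Hochberg, calls below 0.05), with DESeq2 1.42.0 as an alternative. With 2 libraries against 2, a permutation test of 1 gene cannot go below p = 0.333. On simulated data with 200 genes changed 4-fold, edgeR recovered 84.5% (ectoderm-like against mESC, 8018 genes), 84.5% (XEN-like against mESC, 7998 genes), 79% (between lineages, 8016 genes) and 90.5% (trend, 8324 genes). Single libraries were compared as ratios of CPM for genes with at least 50 UMIs, with exact 95% intervals. Alternatives were other scaling, filters, thresholds and tools, a replicate block and leaving out each library. Python 3.11.15, scipy 1.17.1 and BLAST 2.17.0 were used.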

Additional observations from a re-analysis of the deposited data

Results flagged for a closer look

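The difference between XEN-like and ectoderm-like cells, tested directly by edgeR on 2 against 2 sorted libraries, passed for 10 of the genes reported above. Among the Polycomb genes these were Ezh2, with a log2 fold change of −1.36, Phc2 with −1.64, Pcgf5 with 2.92 and Auts2 with −2.55. Among S phase genes Mcm7 differed by −0.89. The named targets were Gata6 with 3.90, Sox17 with 2.47, Gata4 with 2.91, Hoxb2 with −5.49 and Pax6, which was at least 35.7-fold lower in XEN-like cells. The Ezh2 call was lost without any 1 of the 4 sorted libraries, at adjusted p of 0.0767 to 0.124. DESeq2 left Phc2 (adjusted p = 0.163), Auts2 (0.111) and Mcm7 (0.0553) uncalled between the lineages and called the other 7.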

How the results depend on the processing

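The trend over time called the same 6 members under each of the 16 settings tried (DESeq2, RLE factors, no filter, other time scales and each library left out). Members called numbered 3 to 5 for ectoderm-like against mESC when 1 library was left out (5 with all), 3 to 6 for XEN-like against mESC (6 with all) and 0 to 1 between lineages (1 with all, 0 without any 1 of the 4 sorted libraries). Other Polycomb genes called numbered 2 to 6 (6 with all) for ectoderm-like against mESC and 0 to 5 (3 with all) between lineages on leaving out a library, and 5 between lineages with no filter on low counts. Same-numbered libraries correlated at 0.10, 0.02 and 0.32 in their deviations, so numbers were not taken to pair them. With a replicate block 5 other Polycomb genes were called between lineages, and member calls were 5, 6 and 1 as without it. With 1 library left out, changes that were not called turned sign. From mESC to ectoderm-like, Ezh2 ranged from −0.34 (without mESC replicate 2) to 0.58 and Cbx7 from −0.56 to 0.12 (without ectoderm-like replicate 2), and the Ezh2 trend from −0.44 to 0.096 (without 96 h). The Cbx2 change from mESC to XEN-like, near 0, became 0.0081 with RLE factors and 0.073 with only the 4 libraries compared, and ranged from −0.86 to 0.34 with 1 library left out. Relative to Gapdh, ratios of the ectoderm-like culture to sorted cells turned to 1.15 for Eed and 1.08 for Jarid2. At a threshold of 1.5-fold, members passing numbered 1 between 48 h quartiles (0 at 2-fold), 4 at 72 h (2 at 2-fold, 1 with TMM scaling, chosen after seeing the data), 7 in the ectoderm-like culture (4 at 2-fold), 6 in the XEN-like culture (2 at 2-fold) and 2 between cultures (1 at 2-fold, 2 with at least 20 counts). With 1 library of the reference left out, also chosen after seeing the data, members past 2-fold numbered 3 to 4 at 96 h (6 with both mESC libraries, 2 of them then under 50 UMIs), 2 to 5 in the ectoderm-like culture (2 without sorted replicate 1) and 1 to 2 in the XEN-like culture (1 without sorted replicate 1). Causes of these shifts were not tested. With 2 libraries a group and at most 42 UMIs of Cbx2 and 9 of Ring1 in a library, depth limits what can be said of these genes.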
